A study of Mus musculus with 6 samples.

Results

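The genes that write, copy and remove methyl groups on cytosine were followed in the rostral telencephalic primordium of mouse embryos in which Rx-Cre acts on floxed alleles of Dicer, the miRNA-processing enzyme. The 8 genes were taken by name from the count files: 4 that write or maintain the mark (Dnmt1, Dnmt3a, Dnmt3b and Uhrf1) and 4 that remove it (Tet1, Tet2, Tet3 and Tdg). They are 8 of 55471 gene identifiers in the files, of which 30928 had a count in at least 1 library. The rule that picks them goes by name and uses no measured value, although earlier results of these data were known when it was set. All 8 were well above the detection limit, with 800 to 23301 raw counts per library. None was called different between genotypes. The change furthest from 0 was that of Dnmt3b, which was 1.27-fold higher in Rx-Dicer embryos (95% interval 1.06 to 1.53) and did not pass correction over all genes.

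RNA was sequenced at E11.5 (embryonic day) from 3 control and 3 Rx-Dicer samples. Every embryo carried floxed Dicer alleles on both chromosomes (DicerF/F), and the Rx-Dicer embryos also carried Rx-Cre (RxCre-DicerF/F). The genotype label of the controls reads WT, while the protocol gives DicerF/F. Cre came from the Rx3-Cre line, kept on a CD1 background, and the floxed line was kept on C57BL/6. Excision is thus limited to cells in which the Rx promoter fragment has been active, and the dissected tissue also holds cells outside that lineage. Whether each library came from a single embryo is not given in the labels, so the p-values measure the spread between these samples, which may be partly technical.

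In mammals, DNMT3A and DNMT3B place methyl groups on unmethylated CpG dinucleotides, and DNMT1 copies the mark onto the new strand after replication, guided there by UHRF1. TET1, TET2 and TET3 oxidise 5-methylcytosine, and the thymine DNA glycosylase TDG cuts out the more oxidised forms so that base excision repair can put back an unmodified cytosine. The miR-29 family is known to bind the 3′ UTRs of DNMT3 and TET transcripts, and its levels are known to rise as the brain matures. Dicer cuts the precursors of nearly all miRNAs, and the comparison asks whether the 8 transcripts differ in level where its gene has been excised. Levels of mature miRNAs were not read here. At this stage the paper reported significantly lower levels of only a few mature miRNAs, most of them let-7 members.

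The matches to miRNA seeds in the 8 transcripts are shown first, because they set out which of the genes share a seed word. No word was found in all 8. A seed is bases 2 to 8 of a mature miRNA, and it is in capitals in these mouse miRNAs from RefSeq, each of which stands for a seed family:
miR-29a-3p: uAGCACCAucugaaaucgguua
miR-148a-3p: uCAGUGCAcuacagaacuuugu
miR-26a-5p: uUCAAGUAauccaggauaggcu
let-7a-5p: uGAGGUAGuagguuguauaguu

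miR-29a-3p, miR-29b-3p and miR-29c-3p share 1 seed, whose 7-base complement in a transcript is TGGTGCT. The 8-base form, TGGTGCTA, adds an A opposite the first base of the miRNA, and each 8-base match is also counted as a 7-base match. Only the transcript strand was searched, in the longest 3′ UTR that GENCODE annotates for each gene. Of the 8 genes, 6 held the 7-base word and 5 held the 8-base word, with 29 matches in all. Among all 21110 coding genes, 14.1% held the 7-base word and 2.98% the 8-base word. Their UTRs had a median of 1085 bases, so each gene was also set beside genes whose UTR length was within 20% of its own.

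The miR-29 matches of the erasers and of the de novo enzymes are shown with the 9 bases before and the 8 after, in GRCm38 from the GENCODE transcripts, written in the direction of the transcript. Capitals mark the matched word and the coordinates cover the capitals. The 8-base matches are given for 5 genes, and the single match of Dnmt3b has 7 bases:
Dnmt3a, chr12:3911405-3911412, plus strand: ggaggtagcTGGTGCTAgcaccagg
Dnmt3a, chr12:3911474-3911481, plus strand: gtcccaagcTGGTGCTAattcctct
Dnmt3b, chr2:153686627-153686633, plus strand: agcccggcaTGGTGCTcatgttct
Tet1, chr10:62806042-62806049, minus strand: tgaaggagaTGGTGCTAgctgaaca
Tet2, chr3:133466173-133466180, minus strand: aacattaaaTGGTGCTAcaaatggt
Tet2, chr3:133465116-133465123, minus strand: acatcacgaTGGTGCTAcccagatt
Tet3, chr6:83364336-83364343, minus strand: tctaataaaTGGTGCTAtggtgttt
Tet3, chr6:83363777-83363784, minus strand: gcttttagtTGGTGCTAaacttctc
Tdg, chr10:82649677-82649684, plus strand: cattttccaTGGTGCTAcagacagc

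Tet3 held 8 miR-29 matches in a UTR of 5669 bases, a number reached by 0.126% of 792 coding genes with a UTR of like length. Tet1 held 7 in 7962 bases, reached by 0.316% of 316 genes. Tet2 held 5 in 3058 bases, reached by 0.0394% of 2538 genes. The genes compared include the gene itself, and each of these 3 shares is that TET gene alone. No other gene of like UTR length held as many, and the 3 percentages differ only by how many genes were compared. The 3 TET genes thus lay at the upper end for this word at their own UTR length. Dnmt3a also held 5, in 6696 bases, a number reached by 0.958% of 522 genes. Tdg held 3 in 2079 bases, which 0.195% of 3077 genes reached. Dnmt3b held 1 in 1331 bases, and 11.9% of 2889 genes of like length held 1 or more, so its single match is not unusual.

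Dnmt1 and Uhrf1, which act together at the replication fork, held no miR-29 match in UTRs of 312 and 984 bases. Of genes of like UTR length, only 3.38% and 9.53% held the 7-base word, so holding none is usual. Dnmt1 and Uhrf1 each held an 8-base match to miR-148 (TGCACTGA). That word was present in 3.89% of all coding genes, and in 1.11% and 2.32% of those of like UTR length. These matches are shown because they part the maintenance genes from the other 6:
Dnmt1, chr9:20907491-20907498, minus strand: agccccacgTGCACTGAtgttttta
Uhrf1, chr17:56323115-56323122, plus strand: ttcagagagTGCACTGActgggtgt

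Tdg held a pair of 7-base matches to miR-148 (TGCACTG) and no 8-base match. Of genes of like UTR length, 2.57% held as many. The miR-26 word TACTTGA was found in 5 of the genes, with 8 matches. Of these, 6 were 8-base matches (TACTTGAA), in Dnmt3a, Tet1, Tet2 and Tet3. Among all coding genes, 9.98% held the 7-base word. Of genes of like UTR length, 39.7% held it for Dnmt3a, 44.9% for Tet1, 19.1% for Tet2, 33.6% for Tet3 and 12.9% for Tdg. Tet1, Tet2 and Tet3 held 2 matches each, a number reached by 11.7%, 2.32% and 6.82% of genes of like length. Of 792 genes with a UTR length like that of Tet3, 30.2% held the let-7 word CTACCTC and 12.1% its 8-base form. A match at that length is not unusual. Among the 8 genes the word was found in Tet3 alone, as 1 8-base match (CTACCTCA):
Tet3, chr6:83365329-83365336, minus strand: atgtataacCTACCTCAaatctgtc

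miR-9 (ACCAAAG) had a 7-base match in Dnmt3a and in Uhrf1, and miR-101 (GTACTGT) a 7-base match in Dnmt3a and an 8-base match in Tet2. Among all coding genes, 13.4% held the 7-base miR-9 word, 9.76% the 7-base miR-101 word and 2.95% the 8-base miR-101 word. A match is a run of letters and not a measured binding site, and which UTR form this tissue uses was not tested. The map of the matches sets these counts along each UTR.

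**Figure D1:**
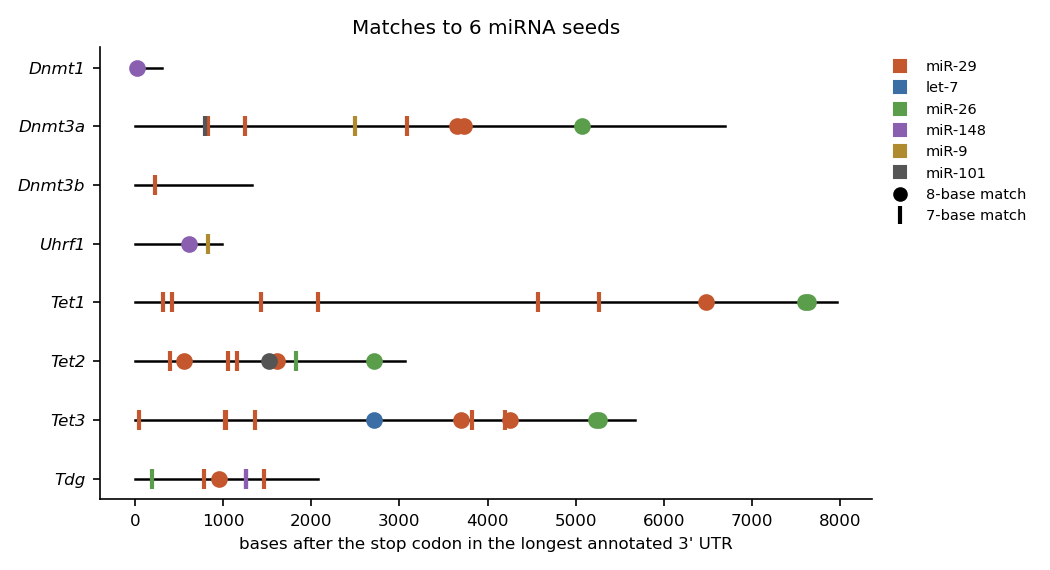
Matches to 6 miRNA seeds along the longest annotated 3′ UTR of each gene, in bases after the stop codon. Dots are 8-base and bars are 7-base matches, and colours are miRNA families. Tet3, Tet1, Tet2 and Dnmt3a carry 5 to 8 miR-29 matches each, and Dnmt1 and Uhrf1, with the shortest UTRs, carry none.

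Depth was high and similar between the groups, with 34471501 to 48373468 counts per library, 24698 to 26034 genes with a count, and a floor of 3 counts at 0.0620 to 0.0870 CPM (counts scaled to the library total), which covers counting error only. The targeted gene did not separate the genotypes cleanly. Dicer1 had 6355, 7070 and 6270 normalised counts in controls 1, 2 and 3 and 4777, 7002 and 4644 in Rx-Dicer 1, 2 and 3. The library labelled Rx-Dicer 2 was at control level, and the log2 fold change over all 6 libraries was -0.26 ± 0.17 (SE; DESeq2 adjusted p = 0.567). Without that library it was -0.47 (DESeq2 adjusted p = 8.81e-04). The count covers the whole gene, of which Cre removes a part, so it is an incomplete check of the labels. The fold change of each of the 8 genes is therefore also given without that library.

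All 4 telencephalon markers were detected, and 1 was called higher: Six3, a transcription factor of the rostral forebrain and eye field, had 684 to 1357 normalised counts in controls and 2177 to 3018 in Rx-Dicer samples (log2 fold change 1.27, DESeq2 adjusted p = 6.27e-06). Of 6 neural progenitor markers 1 was called lower: Pax6, a transcription factor of cortical progenitors, had 6726 to 7210 and 4749 to 5629 (log2 fold change -0.43, DESeq2 adjusted p = 0.0127). Sox2 (-0.16), Nes (-0.37) and Hes5 (-0.17) were also lower, Hes1 (0.22) and Vim (0.17) were higher, and none of these was called. For Vim all Rx-Dicer values were above all controls. Summed progenitor markers ran from 135300 to 140700 in controls and from 122800 to 140900 in Rx-Dicer samples. Blood markers varied within both groups, their summed level running from 419900 to 971600 in controls and from 344800 to 972200 in Rx-Dicer samples. Summed neuron markers ran from 62450 to 79020 in controls and from 52500 to 71290 in Rx-Dicer samples, with 0 of 7 called by DESeq2. The 1 with an unadjusted p under 0.05 was Elavl3 (log2 fold change -0.41, DESeq2 adjusted p = 0.152), whose Rx-Dicer values were all below the controls. Summed mesenchyme markers ran from 30530 to 69510 in controls and from 45430 to 60920 in Rx-Dicer samples. The 4 endothelium markers summed to 4678 to 4774 in controls and to 5972, 6592 and 2695 in Rx-Dicer 1, 2 and 3, with 0 called. The 5 microglia markers summed to 955 to 1108 in controls and to 3616, 1083 and 2241 in Rx-Dicer 1, 2 and 3, with 2 of 5 called higher. The part of any of these markers' cells or regions in the results was not tested. In bulk tissue, fewer cells of a type and less RNA per cell cannot be told apart.

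Counts were compared with the DESeq2 Wald test across all genes, and a gene was called at an adjusted p under 0.05 together with a log2 fold change beyond 0.32 in either direction. Of 17128 genes tested, 502 or 2.93% were called. Of the 8 methylation genes, 0 were called by DESeq2, 1 had an unadjusted p under 0.05, and edgeR's quasi-likelihood test likewise called 0, with 1 at an unadjusted p under 0.05. That test called 8 of 17954 genes in all. Across all tested genes, 13.1% had an unadjusted p under 0.05. For 1 of the 8 genes the groups did not overlap, and the same held for 19.3% of all tested genes. The fold changes were positive for 5 genes and negative for 3, and their median was 0.08 on the log2 scale, beside -0.0009 for all tested genes. In absolute size the median log2 fold change of the 8 was 0.11, beside 0.13 for the 12888 tested genes with a mean of at least 100 normalised counts.

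**Figure D2:**
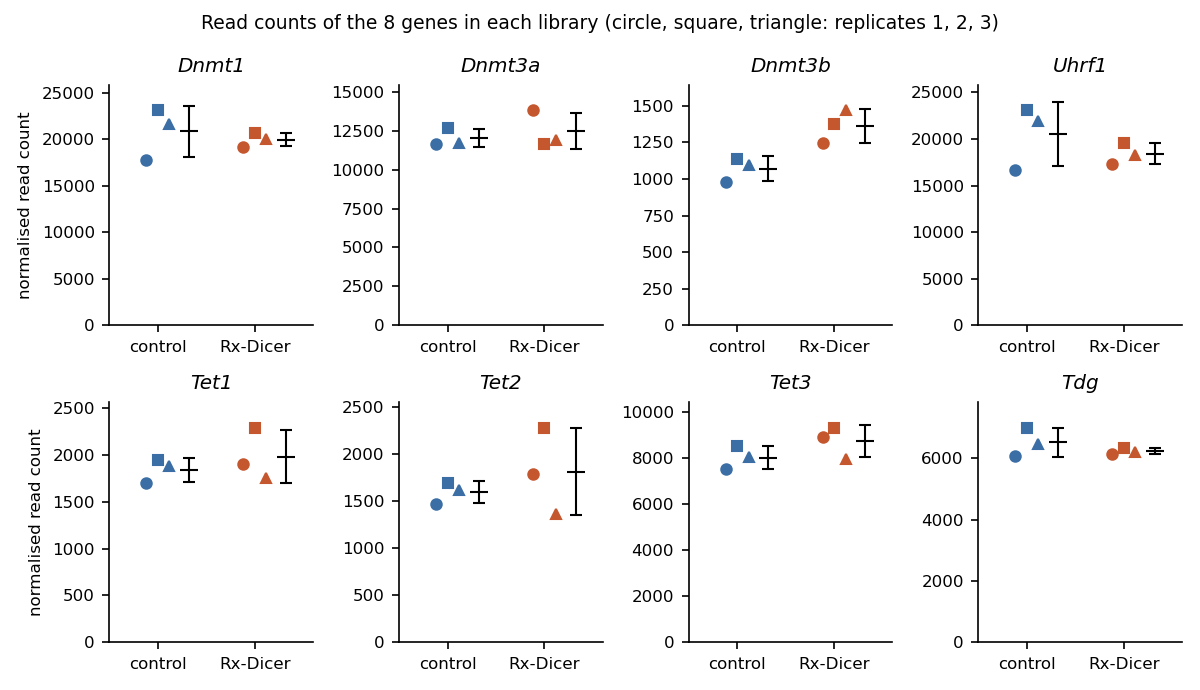
Normalised read counts of the 8 genes in each library, with an axis from 0 in every panel. Symbols are libraries (circle 1, square 2, triangle 3), the black mark is the mean and its bar the SD (n = 3). Only for Dnmt3b do the Rx-Dicer libraries (1243 to 1470) all lie above the controls (977 to 1137).

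Dnmt3b (chr2:153649450-153687730, plus strand, GRCm38), the de novo enzyme known for its high expression in early embryos, had 977, 1137 and 1099 normalised counts in controls 1, 2 and 3 and 1243, 1374 and 1470 in Rx-Dicer 1, 2 and 3. All Rx-Dicer libraries were above all controls. The means were 1071 ± 83.4 and 1362 ± 114 (SD, n = 3 each). On the log2 scale the difference was 0.35 ± 0.14 (SE), and DESeq2 gave it an unadjusted p of 0.0105 and an adjusted p of 0.165. The edgeR test gave an unadjusted p of 0.00938 and an adjusted p of 0.232. Without the library labelled Rx-Dicer 2 the log2 fold change was 0.34 (DESeq2 adjusted p = 0.220). Of 5392 windows of 100 bases in its transcripts, 4.47% were found letter for letter in its neighbour and near copy Dnmt3c, a gene known for silencing young transposons in the male germ line, which had 0 to 10.3 normalised counts.

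Dnmt3a (chr12:3806007-3914443, plus strand), the other de novo enzyme and the main one in neural tissue later in life, had 11670, 12710 and 11740 normalised counts in controls and 13820, 11680 and 11930 in Rx-Dicer samples. The groups overlapped, with the highest value in Rx-Dicer 1. Its means were 12040 ± 580 and 12480 ± 1171 (SD, n = 3 each). DESeq2 put the difference at 0.05 ± 0.12 on the log2 scale (SE; adjusted p = 0.948), with a 95% interval from -0.18 to 0.28. It was 0.10 without the library labelled Rx-Dicer 2. No 100-base window of its transcripts was found in another gene.

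Dnmt1 (chr9:20907209-20959888, minus strand), the maintenance methyltransferase, had 17800, 23140 and 21710 normalised counts in controls and 19220, 20670 and 20050 in Rx-Dicer samples. The Rx-Dicer values lay inside the range of the controls. Its log2 fold change was -0.06 ± 0.13 (SE; 95% interval -0.32 to 0.19; DESeq2 adjusted p = 0.937), and -0.08 without the library labelled Rx-Dicer 2.

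Uhrf1 (chr17:56303321-56323486, plus strand), which reads hemimethylated CpG and brings DNMT1 to it, had 16680, 23080 and 21890 normalised counts in controls and 17320, 19600 and 18300 in Rx-Dicer samples. The groups overlapped. The log2 fold change was -0.16 ± 0.14 (SE; 95% interval -0.44 to 0.12; DESeq2 adjusted p = 0.767), and -0.20 without the library labelled Rx-Dicer 2. A processed pseudogene, Gm5648, shared 5.53% of 4448 windows of 100 bases, so some Uhrf1 reads may have aligned to several places and stayed uncounted.

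Control 1 was the lowest of the controls for all 8 genes. It also had the lowest sum of the 10 S phase genes, at 104300 normalised counts beside 130700 and 118500 in controls 2 and 3, and the highest sum of the 7 neuron markers, at 79020. In Rx-Dicer samples the S phase sums were 109000, 113200 and 125100. The part of cell cycle or cell makeup in the levels of the 8 genes was not tested. Over the 6 libraries, which share depth scaling and tissue makeup, the log2 normalised counts of Dnmt1 had a Pearson r of 0.97 with Uhrf1 and of 0.92 with Tdg, against 0.04 with Dnmt3a and 0.17 with Dnmt3b, given as a description.

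Tet1 (chr10:62804570-62908996, minus strand), the TET enzyme best known from embryonic stem cells and germ cells, had 1698, 1945 and 1879 normalised counts in controls and 1899, 2289 and 1747 in Rx-Dicer samples. Its groups overlapped and its highest value was that of the library labelled Rx-Dicer 2. The log2 fold change was 0.10 ± 0.14 (SE; 95% interval -0.18 to 0.38; DESeq2 adjusted p = 0.883), and it turned to -0.0093 without that library.

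Tet2 (chr3:133463679-133545139, minus strand), the TET enzyme without its own CXXC domain and often mutated in blood cancers, had 1467, 1696 and 1619 normalised counts in controls and 1792, 2284 and 1361 in Rx-Dicer samples. The Rx-Dicer group held both the highest and the lowest value, and its SD of 462 exceeded that of the controls, 116. The log2 fold change was 0.19 ± 0.18 (SE; 95% interval -0.17 to 0.54; DESeq2 adjusted p = 0.799). With the library labelled Rx-Dicer 2 left out it was -0.011, so its direction rests on that library.

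Tet3 (chr6:83362373-83459084, minus strand), the TET enzyme of the zygote and of neural tissue, had 7550, 8530 and 8044 normalised counts in controls and 8932, 9346 and 7986 in Rx-Dicer samples. Rx-Dicer 1 and 2 were above every control and Rx-Dicer 3 was not. The log2 fold change was 0.12 ± 0.12 (SE; 95% interval -0.11 to 0.35; DESeq2 adjusted p = 0.788), and 0.08 without the library labelled Rx-Dicer 2. As a fold, the 95% interval ran from 0.929 to 1.28.

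Tdg (chr10:82629828-82650799, plus strand) had 6063, 6994 and 6468 normalised counts in controls and 6141, 6326 and 6182 in Rx-Dicer samples. The Rx-Dicer values were close together, with an SD of 97.2, and lay inside the control range. The log2 fold change was -0.07 ± 0.11 (SE; 95% interval -0.28 to 0.15; DESeq2 adjusted p = 0.913), and -0.07 without the library labelled Rx-Dicer 2. Of 5738 windows of 100 bases in its transcripts, 22.6% occur in 4 copies, among them the processed pseudogenes Gm9855, Tdg-ps and Gm5597. Reads that aligned to several places were not counted for any gene, so the level of Tdg is a lower estimate. Those 3 pseudogenes had 40.7 to 112 normalised counts per library. The exons of Tdg also overlap Glt8d2 over 367 bases on the opposite strand, which the stranded counting keeps apart, and no exon of the 8 genes overlaps another gene on its own strand.

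Across the 7 genes other than Dnmt3b, the 95% intervals ran from 0.737-fold, the lower end for Uhrf1, to 1.46-fold, the upper end for Tet2. These intervals are for each gene alone, with no correction for their number. The plot of changes shows that they all cross 0 and that only the interval of Dnmt3b does not.

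**Figure D3:**
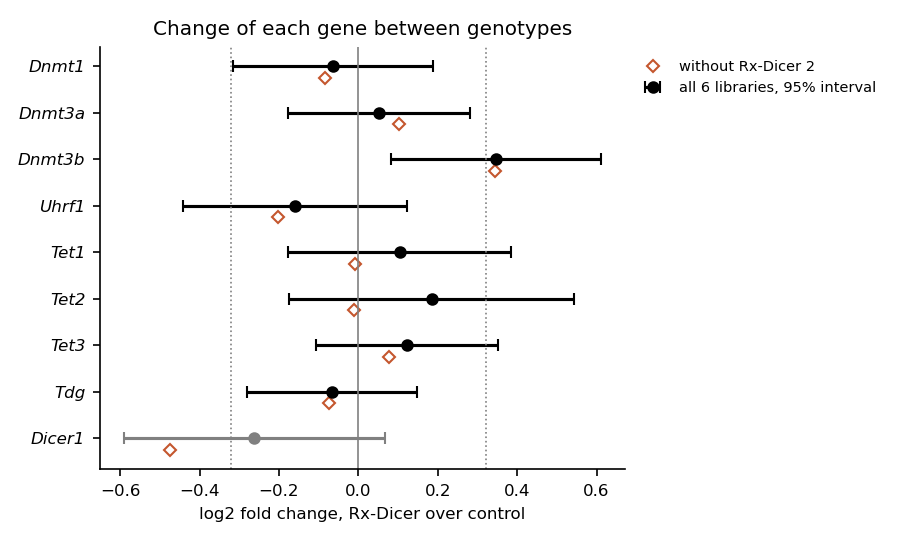
Log2 fold change, Rx-Dicer over control, of the 8 genes and of Dicer1. Dots and bars are the DESeq2 estimate over all 6 libraries and its 95% interval, open diamonds leave out the library labelled Rx-Dicer 2, and dotted lines mark 0.32 in either direction. Dnmt3b stays at 0.34 to 0.35 either way, Tet1 and Tet2 move to about 0, and Dicer1 moves from -0.26 to -0.47.

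Levels of different genes were compared as normalised counts per kb of exon, the length being all annotated exons of a gene merged. Uhrf1 was highest, with a mean of 4573 per kb over the 6 libraries, and Dnmt1 followed at 2770, placing them at the 98.1 and 96.5 percentile of expressed coding genes. Tdg (1184), Dnmt3a (737) and Tet3 (503) came next. Dnmt3b stood at 238, Tet1 at 124 and Tet2 at 101, near the middle of expressed coding genes. The ranges over the 6 libraries did not overlap between neighbours in this order, except for Tet1 (110 to 148) and Tet2 (80.7 to 135), and Tet1 was above Tet2 within each of the 6 libraries. Merged exon length is a coarse divisor for genes with many transcripts, such as Dnmt3a with 18, and lowers the level of genes whose long isoforms are little used.

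**Figure D4:**
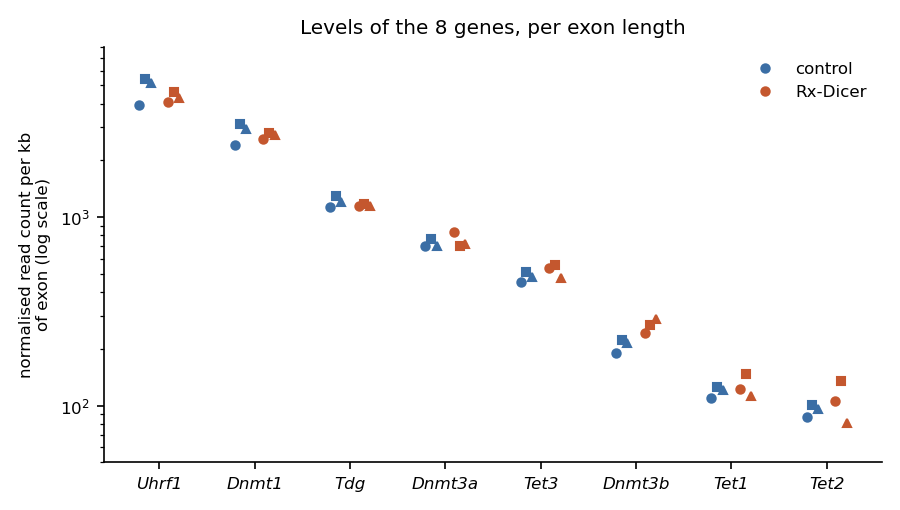
Normalised read count per kb of exon, on a log axis, of the 8 genes in order of their mean. Symbols are libraries (circle 1, square 2, triangle 3) and colours are genotypes. The maintenance pair Uhrf1 and Dnmt1 lies on top at 2414 to 5420, and the same order holds in both genotypes.

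On this per kb scale, Dnmt1 made up 75.1% ± 1.81 of the 3 DNA methyltransferases in controls and 72.7% ± 1.75 in Rx-Dicer samples (SD, n = 3 each). The share of Dnmt3b was 5.79%, 5.40% and 5.57% in controls 1, 2 and 3 and 6.61%, 7.13% and 7.73% in Rx-Dicer 1, 2 and 3, higher in all Rx-Dicer libraries than in any control. This restates the counts of Dnmt3b against nearly level partners and is no second result. Tet3 made up 69.3% ± 0.389 of the 3 TET genes in controls and 69.2% ± 2.50 in Rx-Dicer samples. The ratio of summed methyltransferases to summed TET genes was 5.40 ± 0.271 and 4.94 ± 0.543, and the groups overlapped.

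Beyond the 8 genes, 57 genes of the same pathway were read in 7 lists, of which 45 could be tested. DESeq2 called 1 higher and 0 lower, and 3 of the 45 had an unadjusted p under 0.05, beside 2.93% called and 13.1% with such a p among all tested genes. Of the 57, 1 had all Rx-Dicer values above the controls and 1 had all below. Among all tested genes, the groups did not overlap for 19.3%. The gene called was Zbtb4, a zinc finger protein that binds methylated CpG. It had 374, 275 and 344 normalised counts in controls and 779, 395 and 557 in Rx-Dicer samples, all Rx-Dicer libraries being above all controls. Its log2 fold change was 0.80 ± 0.24 (SE; DESeq2 adjusted p = 0.0388). The edgeR test gave 0.81 with an adjusted p of 0.255, and leaving out any library other than Rx-Dicer 2 also ended the call, with adjusted values of 0.0684 to 0.343 from DESeq2. When Rx-Dicer 2 itself was left out it was 1.02 (DESeq2 adjusted p = 0.00102). The other 7 methyl-CpG readers, which include the Mbd genes, were not called.

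The 6 maintenance partners, which include Pcna and the remodeller Hells, had 0 genes called by DESeq2 and 0 with an unadjusted p under 0.05. The smallest p among them was that of Cdca7l, a paralogue of the HELLS partner Cdca7, with a log2 fold change of 0.22 (DESeq2 adjusted p = 0.628). Of 8 de novo partners, 6 could be tested and 0 were called or had an unadjusted p under 0.05. Trim28, the corepressor that brings methylation to imprinted loci and retroelements, had the smallest, with a log2 fold change of -0.12 (DESeq2 adjusted p = 0.771). Dnmt3l, the catalytically inactive cofactor of germ cells, had 0 to 1 raw counts per library and Dnmt3c 0 to 11.

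Of the 6 TET partners and cofactor enzymes 0 were called and 0 had an unadjusted p under 0.05. Idh1, which makes the 2-oxoglutarate that TET enzymes consume, had the smallest, with a log2 fold change of -0.20 (DESeq2 adjusted p = 0.523). Among 13 base excision and GADD45 genes, Gadd45g, a stress gene linked to active demethylation and expressed in cells that enter neurogenesis, had 1450, 1584 and 1451 normalised counts in controls and 1150, 1264 and 1204 in Rx-Dicer samples. All Rx-Dicer values were below all controls. Its log2 fold change was -0.31 (DESeq2 unadjusted p = 0.0109, adjusted p = 0.169), so it was not called, and neither were the other 12. Of the 5 genes of the methyl donor cycle, Mat2b, the regulatory subunit of the enzyme that makes S-adenosylmethionine, had a log2 fold change of 0.30 (DESeq2 unadjusted p = 0.0452, adjusted p = 0.364) and none was called.

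Some germline genes are held silent in body tissues by promoter methylation and serve as a readout of its loss. Of 11 such genes, 3 (Asz1, Sohlh2 and Tex101) had no count in any library, and only Ddx4, an RNA helicase of germ cells, could be tested. Ddx4 had 30.5, 22.4 and 35.7 normalised counts in controls and 29.2, 33.6 and 22.8 in Rx-Dicer samples (DESeq2 adjusted p = 0.991). The smallest unadjusted p of the list was that of Dazl, with 1 to 10 raw counts per library, too few for DESeq2 to adjust it. Summed over the 11 genes, normalised counts were 33.6 to 59.9 in controls and 39.5 to 52.0 in Rx-Dicer samples, so no release of these genes was detectable at this depth. Methylation itself was not measured in these samples.

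**Figure D5:**
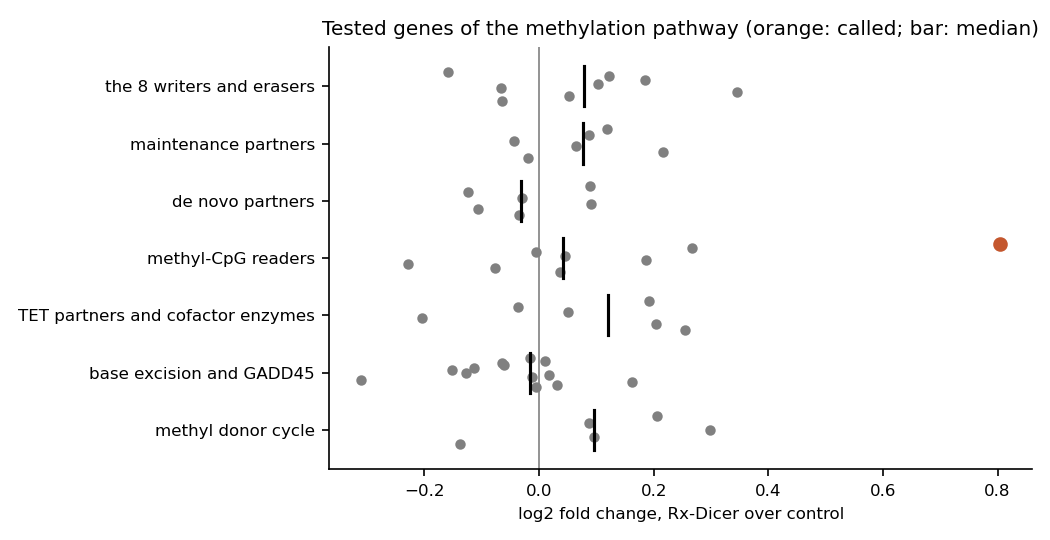
Log2 fold change, Rx-Dicer over control, of the tested genes among the 8 writers and erasers and in 6 lists of pathway genes. Each dot is a gene, black bars are medians and orange marks the gene called by DESeq2. Zbtb4 at 0.80 is the only called gene, and the 8 writers and erasers run from -0.16 to 0.35.

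The genes that tracked the writers and the TET genes most closely over the 6 libraries were looked up among 12895 genes with a mean of at least 100 normalised counts. Over 6 libraries high values of Pearson r arise for many genes, and they are given with no test. Dnmt3b was followed most closely by Tox2 (r = 0.999), an HMG-box gene that was itself called higher in Rx-Dicer samples (log2 fold change 0.98, DESeq2 adjusted p = 9.03e-04), and 64 genes had an r over 0.95 with it. Dnmt1 was followed by Adal (0.999) and Uhrf1 by Paxip1 (0.990). Tet1 was followed by Zfp292 (0.998), Tet2 by Eda (0.996) and Tet3 by Usp34 (0.992). Dnmt3a was followed by Slc15a4 (0.977). None of these last 6 partners was called.

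As a background to the seed matches, genes with an 8-base match in the longest 3′ UTR were read in the same fit. The 502 tested genes with an 8-base miR-29 match had a median log2 fold change of 0.04, with 19 called higher and 6 lower, beside -0.0002 for 11670 tested genes with no 7-base match. For the miR-26 word the median was 0.09 over 713 genes, with 33 called higher and 1 lower. For let-7 it was 0.07 over 621 genes, with 27 called higher and 4 lower. The medians for miR-148, miR-101 and miR-9 were 0.07 over 657 genes (31 called higher, 3 lower), 0.09 over 532 (30 and 4) and 0.11 over 750 (53 and 4). The 8 methylation genes enter these sets where they hold the word, and UTR length differs between genes with and without a match. Of all 17128 tested genes, 502 or 2.93% were called in either direction. The split of those 502 by direction and the share called among genes with no match were not computed. The called counts are therefore a description only.

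RefSeq promoter windows of 250 bases before and 50 after a start were found for all 8 genes. The window of Tet2 held 57 CpG dinucleotides, a number reached by 0.152% of 32851 mouse promoter windows, whose median was 7. Dnmt3a held 46, 47 and 18 at 3 starts and Dnmt3b 30. Dnmt1 held 2, 12 and 33 at its 3 starts, so its starts differ most in CpG content. Which start was used here was not tested.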

How the data were processed

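The authors trimmed reads (Trim Galore 0.6.5), aligned them to GRCm38.p6 with HISAT2 and counted them per gene with HTSeq 0.12.4 on the reverse strand. The deposited values were raw read counts, 2 files per sample, which were summed here (the files of a sample differed by a chi-square of 1.11 to 1.47 per degree of freedom). Rows that name no gene held 24.9% to 31.0% of reads and were left out. Of 55471 identifiers, 55230 matched GENCODE, which gave names, positions and UTRs. Genotypes were compared across all genes with DESeq2 1.42.0 (R 4.3.3): median-of-ratios size factors, Wald test, unshrunken fold changes, Benjamini-Hochberg adjustment with independent filtering. edgeR 4.0.16 (quasi-likelihood, TMM, at least 10 counts in 3 samples), other scalings, filters, thresholds, single files, a replicate block and leaving out each library were alternatives. Normalised counts are counts divided by size factors. The fits were tested on simulated data. The 8 genes, the lists and the seeds were chosen with earlier results of these data known. Beyond the 8, pathway genes were named where called, otherwise the smallest p of each list, and for each of the 8 the gene of highest Pearson r (that for Tdg is not reported here). Mat2b and Gadd45g meet that rule, while Six3, Pax6, Elavl3, the near copies of the 8 genes and Cxxc5 were named after their values were seen.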

Additional observations from a re-analysis of the deposited data

How the results depend on the processing

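None of the 8 genes was called under any of the 17 alternatives run. Among these, an adjusted p under 0.1, no fold minimum and no independent filtering kept the fold changes of the main fit. Direction could not change under those settings. Dnmt3b stayed positive in all 17, at 0.28 to 0.41 on the log2 scale, with adjusted p from 0.0589 (DESeq2 without Rx-Dicer 1) to 0.335. Leaving out each library in turn gave -0.17 to 0.0164 for Dnmt1, turning positive without control 2, and -0.0297 to 0.10 for Dnmt3a, turning negative without Rx-Dicer 1. For Tet1 it gave -0.0093 to 0.18 and for Tet2 -0.011 to 0.35, both turning negative without Rx-Dicer 2. For Dicer1 it gave -0.47 to -0.16, and it was called only without Rx-Dicer 2. Uhrf1, Tet3 and Tdg kept their direction in all 17. Uhrf1 ran from -0.29 without control 1 (DESeq2 adjusted p = 0.125) to -0.07 without control 2, Tdg from -0.12 to -0.011 without the same libraries, and Tet3 from 0.08 without control 1 to 0.18 without Rx-Dicer 3. Of the pathway genes, 0 were called under edgeR, without independent filtering (Zbtb4, DESeq2 adjusted p = 0.0700) and with the second file only (0.0882), and 0 to 2 when a library was left out. Without control 1 the 1 gene called was Cxxc5 in place of Zbtb4, and without Rx-Dicer 2 they were Zbtb4 and Mat2b. The cause was not tested. Relative to the main scaling, the mean log2 size factors of TMM and total-count scaling implied shifts of Rx-Dicer over control of 0.00083 and 0.018.

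The labels give both genotypes the same replicate numbers, but same-numbered libraries did not deviate together (r = 0.27, -0.06 and -0.29), so the numbers were not taken as pairs. With a replicate block Dnmt3b was 0.35 (DESeq2 adjusted p = 0.301), 0 of the 8 genes were called, and 1 pathway gene, Zbtb4, was called (0.76, DESeq2 adjusted p = 0.0176). With 3 libraries per genotype, the 95% interval of each gene shows how uncertain its fold change is in this bulk tissue. It does not bound the change in the cells that lost Dicer.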
